A study of Mus musculus with 40 samples.

Results

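SMC3 occupancy was compared between small pre-B cells of Brwd1 knockout mice (KO, labelled BRWD1KO, Brwd1-/-) and of wild-type mice (WT) in 4 ChIP-seq libraries, 2 KO and 2 WT, out of 40 samples in the series. The members are these libraries by their titles, the 83467 merged SMC3 regions with counts in all of them, and 1 peak list per library, with 12467 and 12323 peaks in KO and 41044 and 64033 in WT. By its title the study concerns BRWD1 and the state of cohesin complexes, here in the small pre-B cell, the bone marrow stage that rearranges the immunoglobulin kappa light chain genes. Both groups are uncultured primary cells sorted by flow cytometry and precipitated with the same anti-SMC3 antibody. The study's description calls the replicates biological. Strain, age, sex, the number of animals per library and the cells in which the Brwd1 allele is lost were not given in the sources used here. P-values therefore measure the spread between these libraries.

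Cohesin is a ring of SMC1A, SMC3, RAD21 and a STAG subunit that encloses DNA. NIPBL helps it to load and to move along DNA while extruding loops, WAPL releases it, and the zinc finger protein CTCF halts it at its binding sites, which become loop anchors. In B cell precursors such loops bring distant antibody gene segments to the recombination centre. BRWD1 is a bromodomain and WD repeat protein that reads histone acetylation and is known in small pre-B cells for opening the kappa locus.

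Depth, taken here as the reads that fell in the merged regions, differed strongly between the groups. Such reads also depend on the set of regions, and total sequenced reads per library were not used. The KO libraries held 4010016 and 4242112 reads in the regions, against 17667209 and 15416715 in WT, so that genotype and depth cannot be told apart by design. One region at 7:97590422-97590611 (mm9, the build of all region coordinates here) took 6.35% and 7.08% of the KO reads, against 18.1% and 10.5% of the WT reads. Regions with a dense input, over 100 input reads per kb, took 68.8% and 68.4% of the KO reads, against 66.3% and 59.1% of the WT reads. The KO replicates lay close to sampling noise (chi-square per degree of freedom 1.19, r = 0.946 for log2 CPM) but above it, while the WT replicates differed more (19.1, r = 0.915), and all 4 were kept as separate libraries. H3K27ac, a mark of active promoters, was used to check the cell type. Of 12 B lineage markers 8 had an H3K27ac region within 1 kb of their start, against 7 of 22 T cell, 9 of 25 myeloid and 4 of 21 erythroid markers. The surrogate light chain genes Vpreb1, Vpreb3 and Igll1 and the recombinase gene Rag2 had no such region. The median B lineage marker had 0.835 and 1.02 CPM of H3K27ac in KO, against 1.95 and 2.04 CPM in WT, and the median of each other list was 0. Summed over a list, H3K27ac was 21.5 and 19.1 CPM in KO and 26.5 and 27.5 CPM in WT for the B lineage. It was 19.1 and 18.8 CPM in KO and 20.2 and 22.2 CPM in WT for the T cell list, and at most 13.9 CPM in KO and 16.9 CPM in WT for the other lists. The part of these differences in the SMC3 results was not tested.

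The libraries of other targets used below are not all alike. A CTCF peak is a WT consensus peak, that is, a peak of CTCF WT 1 that overlaps one of CTCF WT 2. CTCF WT 2 stands apart, since 30.8% of the WT consensus SMC3 peaks overlap its list, against 1.68% for CTCF WT 1. RAD21 KO 1 and RAD21 KO 2 differ as well, as given with the peak lists. The H3K27ac KO libraries carry the genotype label WT beside a knockout title, and the titles were followed. Their peak lists hold peaks named for H3K4me1, so it is uncertain which mark the H3K27ac KO values given here measure.

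SMC3 moved in opposite directions at 2 kinds of region. Short regions at CTCF peaks were higher in KO, by a median log2 fold change of 3.62, and long regions away from CTCF peaks were lower, by a median of −1.16. Of 77109 tested regions, 17046 (22.1%) were higher in KO and 13921 (18.1%) lower, and 46142 were not called (edgeR quasi-likelihood test, Benjamini-Hochberg adjusted p under 0.05). The higher regions had a median log2 fold change of 3.51 and a median width of 282 bp, with quartiles of 180 and 390 bp. The lower regions had a median log2 fold change of −1.27 and a median width of 2113 bp, with quartiles of 1119 and 4341 bp. The 2 width ranges between quartiles do not meet. The split of calls depends on the scaling. With factors from the regions of lowest level it was 20894 higher and 7914 lower, and the median log2 fold change of all regions was 0.15 in place of −0.22. Scaling by library totals or by DESeq2 size factors moved that median to −0.09 and −0.08. Under background scaling the median was 3.99 for CTCF regions and −0.79 for long regions without CTCF, so both directions held. Without dense-input regions the CTCF median was 4.34 and the long-region median −0.53, the smallest long-region change of the settings run. In that fit, with scaling factors recomputed on the regions left, 5129 of 13926 long regions were lower. Among these same 13926 regions, 10835 were lower in the main fit. With input-subtracted counts 4134 of 14080 long regions were lower, against 10919 of 14082. With input-subtracted counts the split was 13576 higher and 6479 lower, and without dense-input regions 10446 higher and 5309 lower.

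Promoter sequences show where some of the higher regions lie. Of the genes whose promoter window, 250 bases before to 50 after the start, was touched by an SMC3 region higher in KO at a CTCF peak, 410 of 575 were matched by symbol to RefSeq promoters of build GRCm38.p6. A core of the CTCF motif, spelled CC, 3 bases of any kind, AG, 2 of any kind and GGC, was searched on both strands. It occurs in 176 of them (42.9%), against 8.56% of all 27025 promoters. Among the 531 matched promoters touched by any tested SMC3 region, a set that includes them, the share is 37.1%. The 410 were chosen for a CTCF peak, so their motif share does not describe the SMC3 gain. A second pattern fixes A as the base after CC, and its matches are all matches of the first as well. Its shares are 16.6%, against 2.41% of all promoters and 13.75% of those with any tested region. Where the higher region had no CTCF peak in either genotype, 7 of 49 matched promoters (14.3%) hold the first motif, and of those with a lower region 1 of 4 does. A match describes the letters and is not a measured site. Of the 8 listed genes with such a region and a sequence, 3 hold the motif. These are shown first with Pdrg1, the strongest named promoter gain, and then Lbr, a named gain without a CTCF peak and without a match. Each runs 5′ to 3′ on its gene's strand, with motif matches in capitals.
Pdrg1 (GRCm38.p6 chr2:153015334-153015633, minus strand): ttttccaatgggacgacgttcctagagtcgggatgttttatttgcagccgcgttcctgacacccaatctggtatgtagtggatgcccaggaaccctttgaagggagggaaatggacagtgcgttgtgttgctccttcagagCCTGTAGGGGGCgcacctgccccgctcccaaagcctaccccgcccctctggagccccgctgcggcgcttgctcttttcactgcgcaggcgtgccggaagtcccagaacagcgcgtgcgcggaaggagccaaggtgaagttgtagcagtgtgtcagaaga
Cebpb (GRCm38.p6 chr2:167688665-167688964, plus strand): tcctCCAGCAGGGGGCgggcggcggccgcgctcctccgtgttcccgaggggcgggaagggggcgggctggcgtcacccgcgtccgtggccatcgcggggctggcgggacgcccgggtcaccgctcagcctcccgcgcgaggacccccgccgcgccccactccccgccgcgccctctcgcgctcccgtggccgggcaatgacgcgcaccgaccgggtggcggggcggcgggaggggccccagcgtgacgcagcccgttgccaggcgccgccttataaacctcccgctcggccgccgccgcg
Rplp0 (GRCm38.p6 chr5:115559217-115559516, plus strand): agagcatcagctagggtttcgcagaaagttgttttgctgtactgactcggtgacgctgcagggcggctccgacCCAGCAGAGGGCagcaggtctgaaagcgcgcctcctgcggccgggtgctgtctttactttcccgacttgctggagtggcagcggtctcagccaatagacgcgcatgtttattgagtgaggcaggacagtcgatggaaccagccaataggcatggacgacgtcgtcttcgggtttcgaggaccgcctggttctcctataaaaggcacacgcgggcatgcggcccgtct
Pds5b (GRCm38.p6 chr5:150673577-150673876, plus strand): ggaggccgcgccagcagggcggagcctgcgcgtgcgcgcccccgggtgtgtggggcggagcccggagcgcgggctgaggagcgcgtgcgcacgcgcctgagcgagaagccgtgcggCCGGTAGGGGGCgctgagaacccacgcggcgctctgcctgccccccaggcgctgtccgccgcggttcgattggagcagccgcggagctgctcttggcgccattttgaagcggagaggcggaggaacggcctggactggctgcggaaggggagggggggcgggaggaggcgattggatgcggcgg
Lbr (GRCm38.p6 chr1:181842352-181842651, minus strand): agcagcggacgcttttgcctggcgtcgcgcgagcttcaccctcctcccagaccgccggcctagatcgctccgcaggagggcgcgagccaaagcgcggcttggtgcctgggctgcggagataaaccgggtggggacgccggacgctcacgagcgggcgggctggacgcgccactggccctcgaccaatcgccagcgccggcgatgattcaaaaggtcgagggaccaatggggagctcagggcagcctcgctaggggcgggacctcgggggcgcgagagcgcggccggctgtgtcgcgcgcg

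At the promoter of Pdrg1, a gene regulated by p53 and DNA damage, the region 2:152840959-152841321 had 13.8 and 9.73 CPM in KO, against 0.392 and 0.438 CPM in WT. The groups lie far apart, with 58 and 43 reads in the shallow KO libraries and 6 and 7 in the deep WT ones (log2 4.78 ± 0.34, SE, adjusted p = 0.000571). Just upstream of the start of Cebpb, a transcription factor of myeloid cells, SMC3 was 7.39 and 9.27 CPM in KO and 0.457 and 0.438 CPM in WT (2:167514029-167514270). The promoter of Rplp0, a ribosomal protein gene (5:116009204-116009427), had 11.2 and 8.82 CPM in KO and 1.11 and 1.06 CPM in WT, over a dense input. Pds5b, which encodes a regulator of cohesin itself, had 4.77 and 7.92 CPM in KO and 1.24 and 1.13 CPM in WT. No WT value of these 4 regions reaches a KO value. The same holds for 100% of the regions called higher, and groups do not overlap in 71.6% of all tested regions. The log2 fold changes of the 4 run from 2.41 ± 0.36 at Pds5b (5:151476153-151476365) to 4.78 at Pdrg1. At Lbr, the lamin B receptor gene, the region 1:183772644-183772975 had 8.58 and 12.2 CPM in KO and 0.653 and 0.688 CPM in WT (log2 3.93 ± 0.32, adjusted p = 0.000596), over a dense input of 219.9 reads per kb.

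SMC3 regions at CTCF peaks were nearly all higher in KO. The regions were built from SMC3 peaks, and at CTCF peaks these came mostly from the KO lists, so that the share describes the regions listed and not CTCF sites at large. Of the 16606 CTCF peaks 50.6% held a KO consensus SMC3 peak. Of 12216 tested regions at a CTCF peak, 11778 were higher in KO (96.4%, against 22.1% of all tested regions) and 33 lower (0.270%, against 18.1%), with a median log2 fold change of 3.62 and quartiles of 3.24 and 3.93. The gain was seen where CTCF was listed in both genotypes (11424 of 11607 higher) and where it was listed in KO alone (1989 of 2075). Of the 609 regions at peaks listed in WT alone, 354 were higher and 14 lower, with a median of 0.69, and 92.6% of them have a dense input. Of 62818 regions with no CTCF peak in either genotype, 3279 were higher (5.22%) and 13876 lower (22.1%). With peaks of CTCF WT 1 alone, 12670 of 13149 regions were higher, so the count does not rest on CTCF WT 2.

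Among the regions listed at CTCF peaks, the median fold change hardly varied with the CTCF peak score. CTCF sites without an SMC3 region do not enter this comparison, so it does not describe CTCF sites at large. In 4 classes of about equal size ordered upwards by the authors' peak score in CTCF WT 1, 91.2%, 96.5%, 99.0% and 99.0% of regions were higher in KO, and their median log2 fold changes were 3.57, 3.60, 3.64 and 3.65. The share at CTCF peaks also stayed between 93.1% on chromosome 6 and 98.5% on chromosome 17. On the X chromosome 154 of 165 regions were higher.

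CTCF itself was called at very few of these sites. In the CTCF libraries, 11656 regions lie at the SMC3 regions that were higher at a CTCF peak, and 1 of them was called, as higher in KO. Over all 75717 CTCF regions 0.00792% were higher and 0.0317% lower. Their median CTCF level was 23.2 and 24.6 CPM in KO, against 17.5 CPM in CTCF WT 1 and 5.495 CPM in CTCF WT 2. The median log2 fold change was 1.06, and CTCF WT 1 and CTCF WT 2 lie further apart than CTCF WT 1 and the KO libraries. The missing calls do not show that CTCF was equal.

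The share of regions lower in KO rose with region width. The regions were built from SMC3 peaks, and peaks of 1 kb or longer came almost only from the WT lists. They made up 0.128% and 0.187% of the KO lists, against 30.2% and 21.8% of the WT lists. The shares by width thus describe the regions listed, and their direction at the long end is tied to that listing. Without a CTCF peak, the share lower in KO was 2.47% of 18607 regions under 150 bp, 3.61% from there to 250 bp, 4.05% to 500 bp and 15.9% to 1 kb. It was 56.1% of 6524 regions at 1 to 2 kb, 92.3% of 3700 at 2 to 4 kb and 99.7% of 3858 regions of 4 kb and over. The median log2 fold change followed the same order at the long end, with −0.63, −0.94, −1.18 and −1.37 from 500 bp upwards. Longer regions also hold more reads, a median of 635 in WT 1 at 4 kb and over against 53 at 500 bp to 1 kb, so both the size of the change and the power to call it differ along this order. At CTCF peaks the share higher in KO was 73.4% under 150 bp, 94.5% to 250 bp, 98.8% to 500 bp and 99.3% to 1 kb. Of 53 CTCF regions of 1 kb or longer, 37 were higher and 3 lower.

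**Figure D1:**
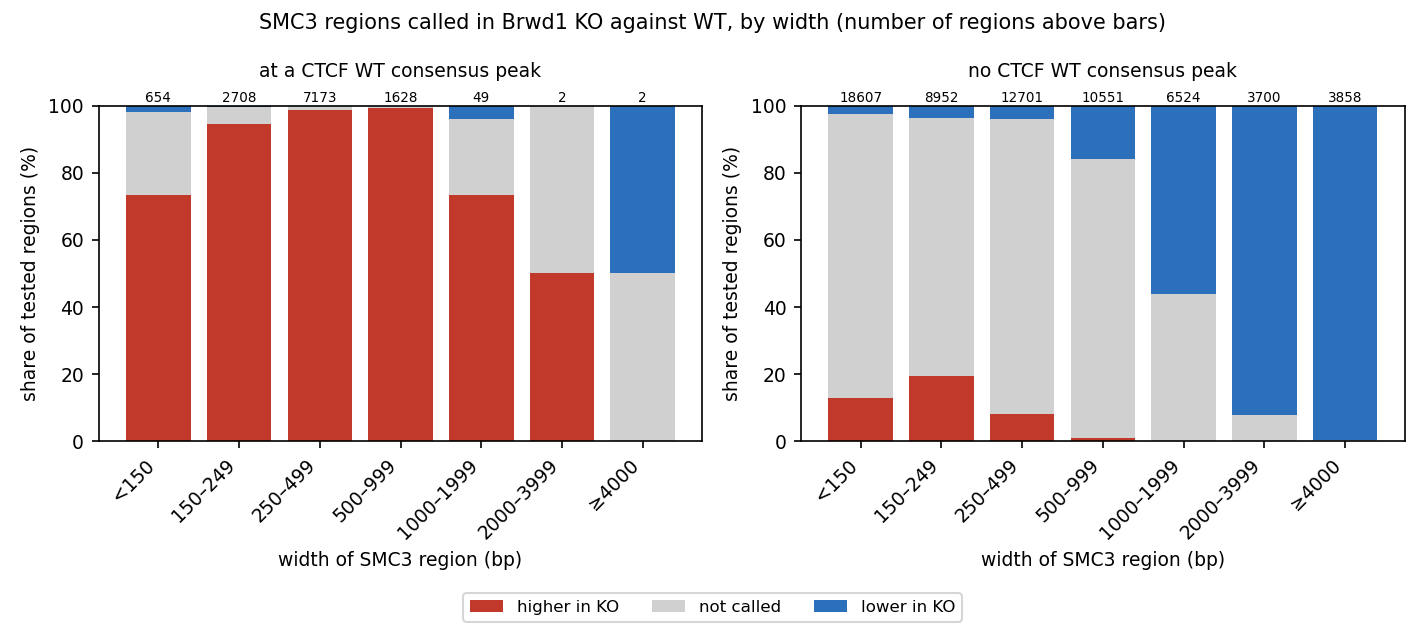
Share of tested SMC3 regions higher in KO, not called and lower in KO (%) by region width in bp, for regions at a CTCF WT consensus peak (left) and without one (right), with the number of regions above each bar. Away from CTCF the lower share climbs from 2.47% under 150 bp to 99.7% at 4 kb and over, while at CTCF peaks under 1 kb most regions are higher.

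Levels per library show that the same libraries carry both patterns. Reads over input were taken as summed reads over summed scaled input, in regions without dense input. In 8424 such regions under 1 kb at a CTCF peak, this ratio was 7.28 and 7.37 in KO, against 1.74 and 1.55 in WT. In long regions, 1 kb or more without a CTCF peak, reads were 1.68 and 1.75 times the scaled input in KO, against 9.46 and 14.4 times in WT. By these ratios the KO libraries were closest to their input at long regions and the WT libraries at CTCF sites. Per length, short CTCF regions had a median of 35.9 and 36.1 CPM per kb in KO, against 3.31 and 2.38 in WT. Long regions had 2.98 and 3.05 CPM per kb in KO, against 6.37 and 6.96 in WT.

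**Figure D2:**
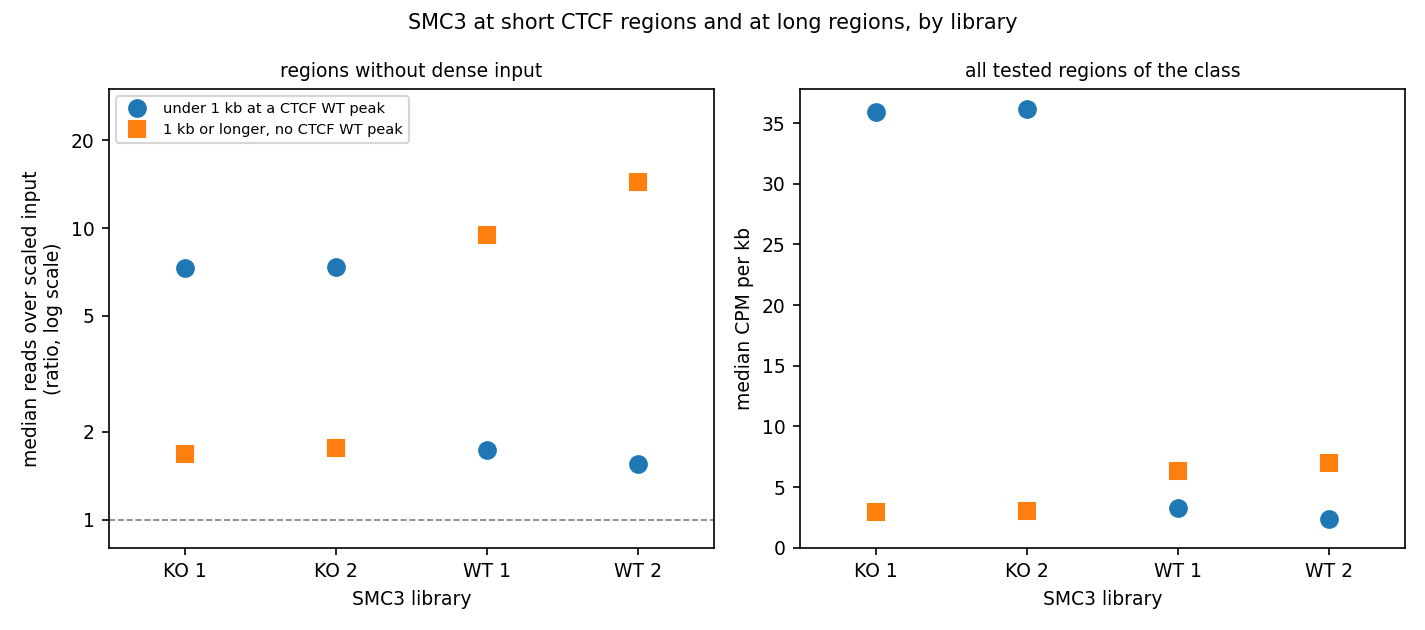
Summed reads over summed scaled input (ratio, log axis, regions without dense input) and median CPM per kb in the 4 SMC3 libraries. The ratio is taken over a whole class and is not a median over regions, although its axis title says median. Circles are regions under 1 kb at a CTCF WT peak and squares are regions of 1 kb or longer without one. Each point is 1 library. KO libraries are high at short CTCF regions (7.28 and 7.37 times input) and WT libraries at long ones (9.46 and 14.4 times).

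The share of all region reads that fell in regions at CTCF peaks was 21.0% and 20.8% in KO, against 7.53% and 5.29% in WT, a difference of 14.5 percentage points (means 20.9% ± 0.125 in KO and 6.41% ± 1.58 in WT, SD, n = 2 each). Both KO libraries lie above both WT libraries, and the two-sided exact permutation test gives p = 0.3333, the smallest that this design allows. Without dense-input regions the shares were 36.5% and 35.9% in KO, against 3.06% and 1.95% in WT. Long regions without a CTCF peak took 19.5% and 19.8% of reads in KO, against 29.1% and 37.2% in WT.

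Nearly all lower regions held reads in KO despite its lower depth. At the WT rate the 13921 lower regions should have held a median of 67.4 reads in KO 1 and 71.0 in KO 2, and they held 29 and 31, with 13 and 10 regions at 0. The 11778 higher regions at CTCF peaks should have held 3.88 and 4.09 reads and held 49 and 52. Both sets were called from these same counts, so the direction of each gap is given by the call. With all libraries thinned to 4010016 reads, 16640 of 56174 tested regions were higher and 14633 lower. At equal depth the share of higher regions at a CTCF peak was 70.9%, against 69.1% at full depth, and 77.0% of lower regions were 1 kb or longer, against 78.5%.

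Calls also changed with gene distance, measured from the nearer edge of a region to the nearest gene start. Within 1 kb of a gene start 1256 of 1655 regions were higher in KO (75.9%) and 34 lower (2.05%). The share higher was 43.2% at 1 to 10 kb, 32.2% at 10 to 50 kb, 16.0% at 50 to 200 kb and 5.72% beyond 200 kb or with no gene. The share lower was 10.04%, 14.5%, 20.3% and 23.8% over the same steps. Within CTCF regions the order nearly vanished, with 98.8%, 97.0%, 97.4% and 95.6% higher up to 200 kb and 79.2% of 443 beyond. Among regions without a CTCF WT peak the order stayed. Of these, 42.6% of 674 were higher within 1 kb and 15.1% at 1 to 10 kb. The share fell further to 6.72% at 50 to 200 kb and 4.25% beyond. Regions under 250 bp without CTCF in either genotype were higher in 23.02% within 1 kb, and in 10.17% to 11.33% of the further steps. Long regions without CTCF were lower in 13 of 25 within 1 kb of a start, and in 76.1%, 77.3%, 78.0% and 77.7% of the further steps. Only 25 of the 14082 long regions lie within 1 kb of a start. Being inside a gene made little difference, with 78.5% of 4315 long regions lower inside genes and 77.1% of 9767 outside.

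**Figure D3:**
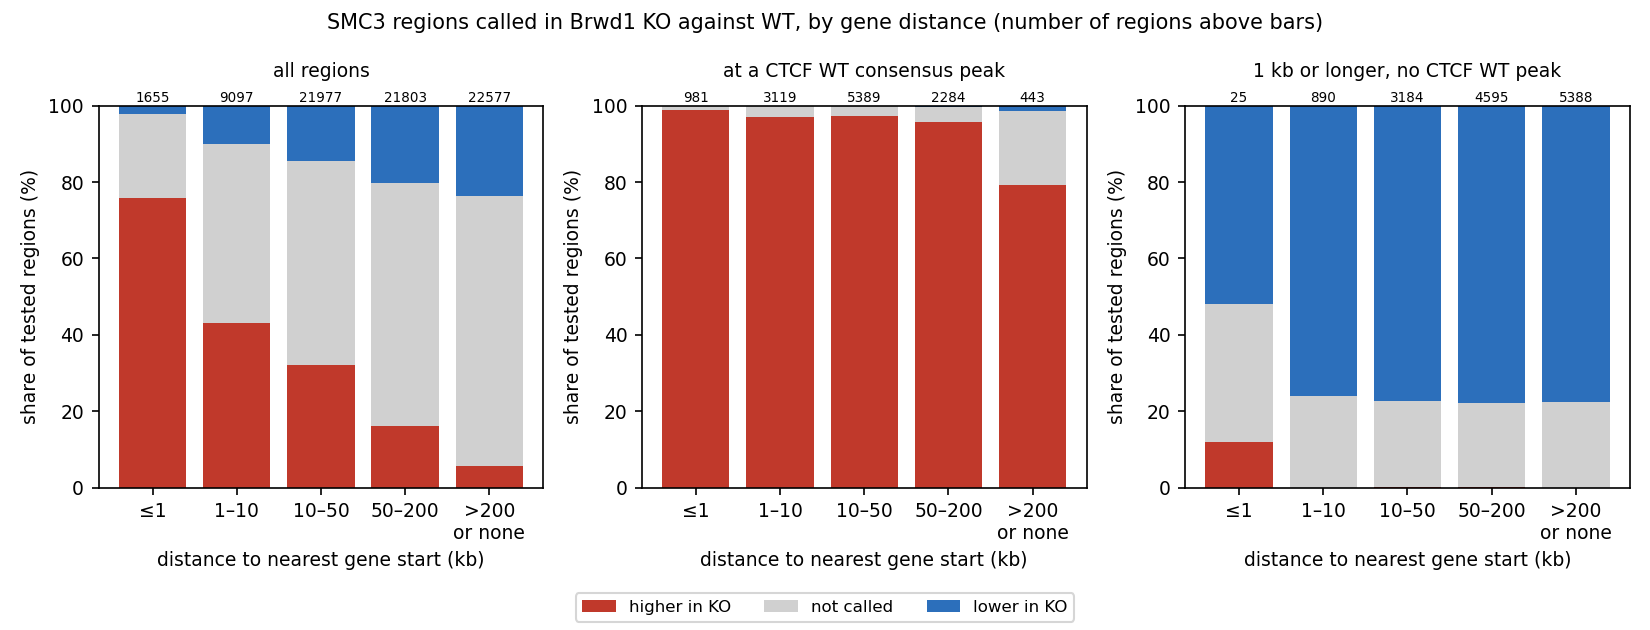
Share of tested SMC3 regions higher in KO, not called and lower in KO (%) by distance in kb from the nearer region edge to the nearest gene start, for all regions, regions at a CTCF WT peak, and regions of 1 kb or longer without one; numbers of regions stand above the bars. The fall of the higher share from 75.9% within 1 kb to 5.72% beyond 200 kb is seen over all regions, whereas CTCF regions stay at 95.6% or more up to 200 kb. All regions without a CTCF WT peak, which have no panel of their own, fall from 42.6% to 4.25% over the same steps.

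Over all regions the share lower in KO was larger further from a CTCF peak, with 11.95% of 1038 regions up to 2 kb from one, 15.5% at 2 to 10 kb, 16.7% at 10 to 50 kb, 21.4% at 50 to 200 kb and 24.3% beyond. Among regions of 1 kb or longer without a CTCF peak the share hardly varied with this distance. These long regions were lower in 75 of 100 that lay up to 2 kb from a CTCF peak, 76.5% at 2 to 10 kb, 76.1% at 10 to 50 kb, 77.3% at 50 to 200 kb and 78.2% beyond. Lower regions were mostly scattered. Joined at gaps of up to 10 kb, the 13422 lower regions on assembled chromosomes formed 10152 groups, of which 7507 held a single region and 22 held 5 or more. The longest of these 22 spans 43.8 kb on chromosome 2 (2:83382667-83426468, 6 regions, nearest gene Zc3h15), with a summed 67.5 and 60.9 CPM in KO, against 152 and 166 CPM in WT.

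The strongest gains named here lay at distal CTCF sites. All regions named by rank have groups that do not overlap, since the rule asks for it, and such separation is not a finding. Upstream of Pik3ap1, which encodes the B cell adaptor for PI 3-kinase, the region 19:41527465-41527792 had 10.5 and 10.4 CPM in KO, against 0.392 and 0.125 CPM in WT. Its log2 fold change was 5.28 ± 0.46 (adjusted p = 0.000654), and WT 2 rests on 2 reads. Upstream of Insig1, which retains the sterol-sensing SREBP pathway in the endoplasmic reticulum, the region 5:28321722-28322103 had 15.5 and 15.6 CPM in KO and 0.587 and 0.438 CPM in WT (log2 4.89 ± 0.27, adjusted p = 0.000571). Beyond the end of Egln3, a prolyl hydroxylase gene of oxygen sensing, SMC3 was 10.97 and 11.1 CPM in KO and 0.326 and 0.188 CPM in WT. All 3 have a CTCF peak in both genotypes. Near gene starts, the region 0.8 kb from Wnt9a, a Wnt ligand gene, had 10.7 and 12.7 CPM in KO and 0.457 and 0.438 CPM in WT (log2 4.67 ± 0.29). At Ccdc83 (7:97414124-97414587) the values were 26.5 and 19.9 CPM in KO and 1.57 and 0.5002 CPM in WT (log2 4.48 ± 0.50).

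A few long regions were higher. Of the 14135 tested regions of 1 kb or longer 50 were higher in KO, 37 of them at a CTCF peak. The region 4:132379116-132380310, 1195 bp long and 18.8 kb from the start of Ppp1r8, a regulatory subunit gene of protein phosphatase 1, had 71.3 and 59.0 CPM in KO, against 3.39 and 3.25 CPM in WT (log2 4.29 ± 0.17, adjusted p = 0.000571). Beside D6Ertd527e (6:87051093-87052139) the values were 53.2 and 59.7 CPM in KO and 3.20 and 1.56 CPM in WT. Beside Fam134b, a receptor gene for the turnover of the endoplasmic reticulum, they were 34.3 and 28.9 CPM in KO and 1.89 and 1.38 CPM in WT. Each of the 3 has a CTCF peak in both genotypes.

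Higher regions without any CTCF peak were mostly of another kind. Of these 3279 regions 90.8% have a dense input, their median width is 132 bp and their median log2 fold change 0.94. The 302 without dense input have a median of 3.40, close to that at CTCF peaks, and were 5.52 and 5.66 times the scaled input in KO, against 1.63 and 1.77 times in WT. Near Cilp2, a cartilage matrix gene, the region 8:72398212-72398374 had 10.01 and 10.6 CPM in KO and 0.587 and 0.563 CPM in WT (log2 4.14 ± 0.28, adjusted p = 0.000571). Within Tjp3, a tight junction gene, the values were 10.2 and 10.2 CPM in KO and 0.718 and 0.563 CPM in WT, over a dense input.

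Among long lower regions the change was steady across libraries. Upstream of Cacnb4, a calcium channel subunit gene, the region 2:52551994-52558077 had 21.5 and 22.6 CPM in KO and 82.5 and 93.3 CPM in WT (log2 −1.99 ± 0.13, adjusted p = 0.000571). Within Wnk3, a kinase gene, SMC3 was 12.9 and 14.5 CPM in KO and 52.1 and 57.0 CPM in WT. The WT means are 3.99 times the KO means at both, and both regions overlap RAD21 and WAPL consensus peaks of WT. From 1 to 3 kb, the region beside Lect1 (14:80063637-80064640), a cartilage gene, had 1.43 and 1.13 CPM in KO and 7.96 and 9.25 CPM in WT. Those of Ugt2b36, a glucuronosyltransferase gene, were 1.91 and 2.26 CPM in KO and 10.2 and 14 CPM in WT, and those of Nlrp4c 1.91 and 2.04 CPM in KO and 9.53 and 9.44 CPM in WT. These 3 rest on 5 to 10 reads per KO library, and none passed with input-subtracted counts (adjusted p = 0.131 for Lect1, 0.0801 for Ugt2b36 and 0.0537 for Nlrp4c).

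The 3 short lower regions named by rank were uneven between the WT libraries. The naming rule passes over regions of low level and some symbols, and the lowest log2 fold change among all lower regions was −8.76. Those of Gpm6b and Chsy1, given below, have a dense input. Over all 807 lower regions under 250 bp the median was 4.53 and 5.43 CPM in KO, against 17.88 CPM in WT 1 and 11.94 CPM in WT 2, a smaller gap between the WT libraries. Within Gpm6b, a membrane glycoprotein gene, the 117 bp region X:162763008-162763124 had 1.91 and 4.07 CPM in KO, against 117 CPM in WT 1 and 12.8 CPM in WT 2. Beyond Chsy1, a chondroitin synthase gene, the values were 12.6 and 17.0 CPM in KO, against 480 CPM in WT 1 and 62.8 CPM in WT 2. Upstream of H2afy2, which encodes a macroH2A histone, they were 0.238 and 1.13 CPM in KO, against 21.5 CPM in WT 1 and 4.06 CPM in WT 2. WT 1 stands well above WT 2 in each, and each call was lost without KO 1 (adjusted p = 0.230 for Gpm6b, 0.190 for Chsy1 and 0.212 for H2afy2) and without KO 2 (0.179, 0.163 and 0.14), and with input-subtracted counts (0.0945, 0.0962 and 0.119). The 33 lower regions at a CTCF peak were alike, with medians of 27.7 and 34.8 CPM in KO, against 349 CPM in WT 1 and 64.65 CPM in WT 2, and 90.9% have a dense input. Beyond Rps15a, a ribosomal protein gene, the region 7:125239826-125239950 had 3.10 and 8.37 CPM in KO, against 117 CPM in WT 1 and 39.3 CPM in WT 2 (log2 −3.75 ± 0.69, adjusted p = 0.00776). Near Pou4f1, a neuronal transcription factor gene, the values were 28.1 and 36.9 CPM in KO and 646 and 109 CPM in WT, and near Tox3, an HMG box gene, 17.4 and 14.2 CPM in KO and 272 and 47.1 CPM in WT. All 3 CTCF peaks are listed in WT alone, and all 3 calls were lost without either KO library (adjusted p from 0.0606 to 0.199) and with input-subtracted counts (from 0.0589 to 0.117).

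Few regions fell near gene starts. Of the 34 within 1 kb, the region at Plekhg1, a guanine nucleotide exchange factor gene (10:6605850-6606044), had 142 and 151 CPM in KO and 461 and 478 CPM in WT (log2 −1.68 ± 0.10, adjusted p = 0.000571), over 1161 input reads in KO and 1541 in WT. At Gja6, a connexin gene, the values were 2.86 and 3.39 CPM in KO and 26.0 and 11.8 CPM in WT, also over a dense input. At Impg2, a retinal matrix gene, they were 1.67 and 2.71 CPM in KO and 5.35 and 8.56 CPM in WT (log2 −1.66 ± 0.40, adjusted p = 0.0215). The calls of Gja6 and Impg2 were lost with input-subtracted counts (adjusted p = 0.0855 and 0.222) and without either KO library (from 0.0788 to 0.149).

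Some genes had both changes beside them. Of 15676 genes with a tested region as nearest gene, 7786 had a region higher in KO at a CTCF peak, 3929 a lower one of 1 kb or longer and 1266 both. The genes described next were taken for having both, and they do not show how often the changes go together. Upstream of Foxo1, a transcription factor gene that drives Rag expression and light chain recombination, the region 3:52047590-52048003 had 16.9 and 14.9 CPM in KO, against 0.849 and 0.563 CPM in WT (log2 4.48 ± 0.29, adjusted p = 0.000571). On the other side, 162.5 kb from the start, the 4393 bp region 3:52234728-52239120 had 8.35 and 14.5 CPM in KO, against 33.9 and 39.4 CPM in WT (log2 −1.68 ± 0.27, adjusted p = 0.00468). SMC3 thus went both ways around Foxo1, which had 6 higher CTCF regions and 2 lower long ones in all. Upstream of Tcf12, which encodes the E protein HEB, the CTCF region 9:72039975-72040174 had 8.58 and 7.92 CPM in KO and 0.392 and 0.375 CPM in WT. Within Tcf12 a 5370 bp region had 16.4 and 15.6 CPM in KO and 40.6 and 51.4 CPM in WT (log2 −1.52 ± 0.17, adjusted p = 0.00123). At Erg, an ETS factor gene, the pair was 12.2 and 10.9 CPM in KO, against 0.914 and 0.313 CPM in WT, and 1.91 and 3.39 CPM in KO, against 8.29 and 7.82 CPM in WT. The lower Erg region lost its call without KO 1 (adjusted p = 0.0681), without dense-input regions (0.0753) and with input-subtracted counts (0.435). At Nfkb1, an NF-kappaB subunit gene, the higher region, over a dense input, had 24.1 and 22.6 CPM in KO and 3.002 and 1.69 CPM in WT. The lower one had 4.53 and 4.30 CPM in KO and 11.3 and 12.7 CPM in WT. Themis, a T cell signalling gene, also had both kinds of region. The one at CTCF, over a dense input, had 7.63 and 9.95 CPM in KO and 0.783 and 0.375 CPM in WT. The long one had 7.87 and 7.46 CPM in KO and 22.9 and 24.6 CPM in WT.

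**Figure D4:**
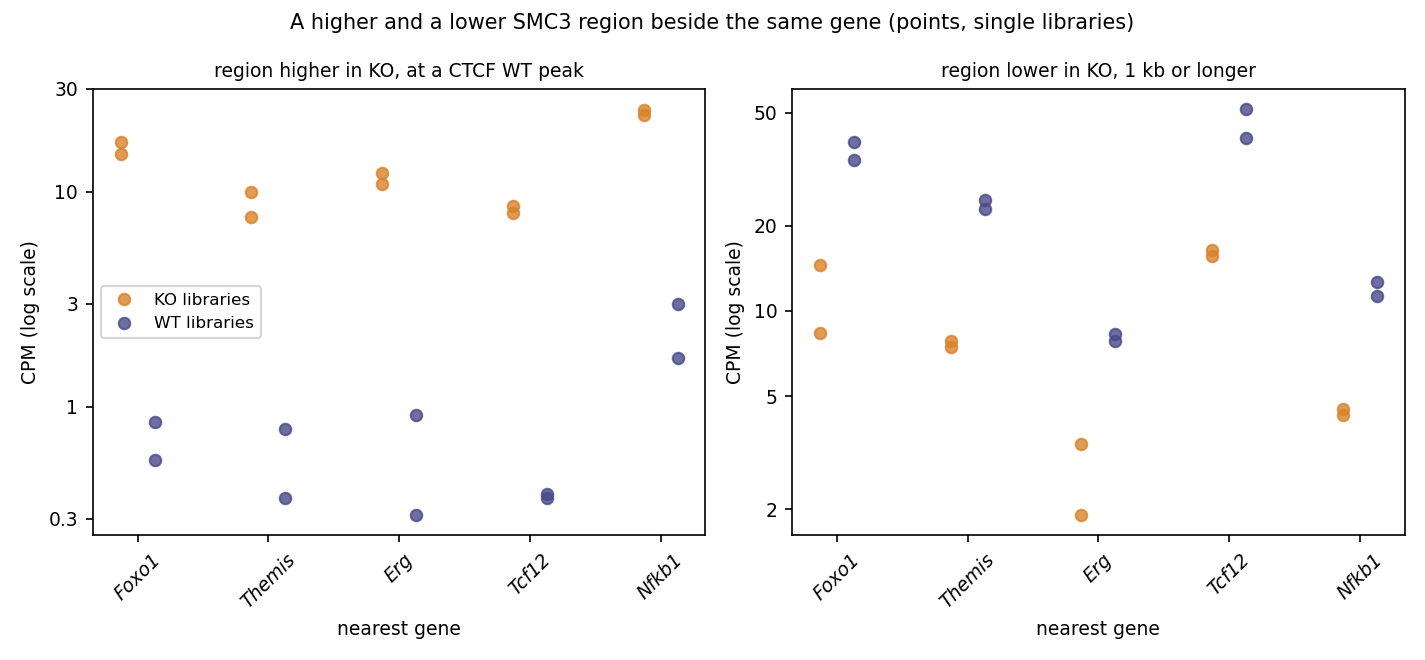
CPM (log axis) of SMC3 in each library (points, KO left and WT right) at 5 listed genes that have both a region higher in KO at a CTCF WT peak and a region of 1 kb or longer lower in KO; the panels show the 2 regions of each gene. KO points lie above WT points in the left panel (16.9 and 14.9 against 0.849 and 0.563 CPM at Foxo1) and below them in the right panel.

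Gene lists of the lineage followed this pattern to varying extents. Of all 15676 genes, 49.7% had a higher region at a CTCF peak and 25.1% a lower region of 1 kb or longer. Among B lineage transcription factors 18 of 22 genes with a tested region had the first (81.8%) and 9 the second (40.9%). Bcl6, a repressor of germinal centre B cells, had 6 higher CTCF regions, the strongest with 17.6 and 22.4 CPM in KO and 1.17 and 1.25 CPM in WT. Fli1, an ETS factor gene, had 27.2 and 30.3 CPM in KO and 1.83 and 1.63 CPM in WT at its strongest. Ets1 and Irf4, a factor of light chain recombination, had lower long regions and no higher CTCF region. The Irf4 region (13:30889475-30890868) had 4.53 and 3.62 CPM in KO and 9.79 and 11.2 CPM in WT (log2 −1.36 ± 0.24, adjusted p = 0.00672).

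Of the pre-B receptor and recombination genes 12 of 18 had a higher CTCF region (66.7%) and 4 a lower long one (22.2%). Beside Cd79b, a signalling chain of the receptor, the values were 20.5 and 21.3 CPM in KO and 1.83 and 0.750 CPM in WT. Beside Rag2, which forms the recombinase with Rag1, a CTCF region upstream, at −98.6 kb from the start, had 9.06 and 7.92 CPM in KO and 0.914 and 0.375 CPM in WT. A 6126 bp region further upstream, at −136.9 kb, had 19.8 and 17.9 CPM in KO and 41.5 and 50.6 CPM in WT (log2 −1.29 ± 0.16, adjusted p = 0.00180). Xrcc4, which joins DNA ends, had 2 lower long regions and no higher CTCF region, with 2.86 and 3.39 CPM in KO and 8.62 and 9.38 CPM in WT at the strongest.

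The genes of cohesin, its regulators and CTCF had a higher CTCF region in 8 of 16 (50%, against 49.7% of all genes) and a lower long region in 2 (12.5%, against 25.1%). Smc3 had 4 tested regions and 3 were higher. That 37.8 kb inside the gene had 5.72 and 8.82 CPM in KO and 0.326 and 0.250 CPM in WT (log2 4.60 ± 0.41, adjusted p = 0.000682), and that just upstream of the start had 12.4 and 17.6 CPM in KO and 2.09 and 1.5 CPM in WT. The fourth lies upstream at −12.1 kb, over a dense input and without a CTCF peak. It had 3.10 and 4.52 CPM in KO and 8.42 and 3.81 CPM in WT, where the groups overlap (adjusted p = 0.312). The gene of the release factor WAPL, listed as Wapal, had a 6804 bp region (14:35515553-35522356) with 19.8 and 16.7 CPM in KO and 50.2 and 61.1 CPM in WT (log2 −1.61 ± 0.17, adjusted p = 0.00102). Brwd1 had 1 tested region, inside the gene at a CTCF peak and over a dense input. This region had 7.63 and 5.20 CPM in KO and 0.457 and 0.625 CPM in WT (log2 3.53 ± 0.38, adjusted p = 0.00106). It says nothing of the deletion, since SMC3 reads do not measure it. No tested region had Ctcf as its nearest gene.

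Lists of other programmes lay on both sides of the shares over all genes, which are 49.7% for a higher CTCF region and 25.1% for a lower long one. A higher CTCF region was found at 16 of 20 proliferation and early pro-B genes (80.0%), 13 of 21 late and mature B cell genes (61.9%), 10 of 18 T cell (55.6%), 6 of 11 myeloid (54.5%), 7 of 14 erythroid (50%) and 10 of 12 housekeeping genes (83.3%). A lower long region was called at 4 of the proliferation, 2 of the late and mature B cell, 3 of the T cell and 3 of the erythroid genes, and at no myeloid or housekeeping gene. Over their regions the median log2 fold change was 0.31 for proliferation, 0.66 for late and mature B cells, 0.45 for T cells, 0.74 for myeloid, 0.22 for erythroid and 3.37 for housekeeping genes, against −0.15 over the regions of all genes. It was 0.84 for B lineage factors, 0.31 for pre-B receptor genes and 0.18 for cohesin genes. Beside Cxcr4, a chemokine receptor gene, a 2600 bp region over the start had 85.6 and 76.0 CPM in KO and 12.3 and 10.003 CPM in WT, and a 5773 bp region upstream at −181.5 kb had 19.8 and 19.2 CPM in KO and 45.6 and 50.2 CPM in WT. Beside Zap70, a T cell receptor kinase gene, SMC3 was 25.3 and 27.4 CPM in KO and 1.63 and 0.625 CPM in WT, in the same range as at B lineage genes. The lists differ in how many regions a gene has and how far apart they lie, and none was tested against the others.

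Peak lists gave the same division without a fit. Of the KO peaks 81.5% and 82.4% overlapped a CTCF peak (exact 95% intervals 80.8% to 82.2% and 81.7% to 83.0%, counting error only), against 1.61% and 1.35% of the WT peaks (1.49% to 1.73% and 1.27% to 1.45%). Median peak widths were 287 and 269 bp in KO, against 490 and 346 bp in WT. Peaks of 1 kb or longer made up 0.128% and 0.187% of the KO lists, against 30.2% and 21.8% of the WT lists. The 2 genotypes shared few peaks. Of 9377 KO consensus peaks 356 overlapped a WT consensus peak (3.80%, 3.42% to 4.203%), and of 33564 WT consensus peaks 347 overlapped a KO one (1.03%, 0.928% to 1.15%). Replicates shared more, with 75.2% of KO 1 peaks in KO 2 and 81.8% of WT 1 peaks in WT 2, though 44.6% of the longer WT 2 list in WT 1. Of the CTCF peaks 50.6% held a KO consensus SMC3 peak and 3.34% a WT one. Taking the highest 12323 peaks of each list, which removes the difference in list length, left overlaps of 2.24% of KO and 2.57% of WT consensus peaks.

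The merged regions come from peak lists, so calls and peaks are not independent. Regions that held a KO consensus peak alone were higher in 8896 of 8976, and those that held a WT consensus peak alone were lower in 12213 of 25961. The 41821 regions with neither were higher in 7268 (17.4%) and lower in 1675 (4.01%).

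Lists of the other cohesin proteins placed the peaks of both genotypes. The WT consensus SMC3 peaks overlapped 82.4% and 88.6% with the RAD21 WT lists and 88.0% and 89.8% with the WAPL WT lists. With NIPBL WT they overlapped in 18.2% and 47.3%. The KO consensus SMC3 peaks overlapped 74.5% with RAD21 KO 1 and 7.59% with RAD21 KO 2, so that 1 of the 2 RAD21 KO libraries shares the CTCF positions of SMC3. They overlapped 5.04% and 6.09% with WAPL KO and 5.05% and 4.60% with NIPBL KO. At the SMC3 regions higher at CTCF, the median RAD21 level was 7.52 CPM in KO 1 and 0.695 CPM in KO 2. In WT it was 1.17 and 1.07 CPM. Of 7036 such RAD21 regions 110 were higher, where 2.3% of all RAD21 regions were called higher. At the long regions where SMC3 was lower, RAD21 had 2.95 and 4.31 CPM in KO, against 11.6 and 11.3 CPM in WT. Of 14338 RAD21 regions there 10135 were lower, where 21.1% of all RAD21 regions were called lower. WAPL there had 2.72 and 2.85 CPM in KO, against 7.74 and 7.77 CPM in WT. Of 14853 WAPL regions there 14079 were lower, where 27.6% of all WAPL regions were called lower. NIPBL there had 3.71 and 3.73 CPM in KO and 5.46 and 5.46 CPM in WT, with 275 of 12353 lower and 5 higher. Over all NIPBL regions 0.63% were lower and 0.995% higher. Of these long SMC3 regions 98.2% overlapped a RAD21 consensus peak of WT and 0.119% one of KO. For WAPL the shares were 97.85% and 1.007%. If the RAD21 and WAPL regions were built from peaks, their direction here is tied to that listing.

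**Figure D5:**
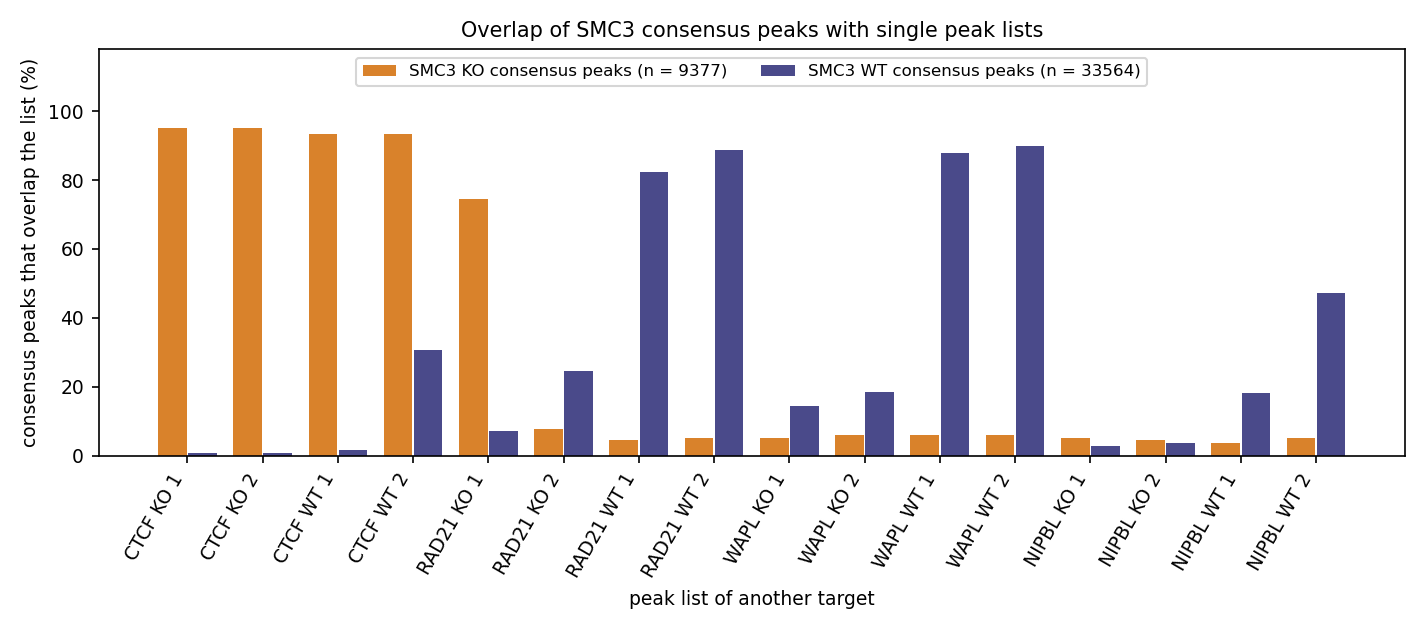
Share of SMC3 KO consensus peaks (n = 9377, left bars) and SMC3 WT consensus peaks (n = 33564, right bars) that overlap each single peak list of CTCF, RAD21, WAPL and NIPBL by at least 1 bp (%). KO peaks overlap the CTCF lists in 93.3% to 95.2% and RAD21 KO 1 in 74.5%, and WT peaks overlap the RAD21 and WAPL lists of WT in 82.4% to 89.8%.

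H3K27ac regions were few at the changed SMC3 regions. At the regions higher at CTCF, 54 of 844 H3K27ac regions were higher in KO and 351 lower, with a median log2 fold change of −0.21. Over all H3K27ac regions 5.9% were higher and 10.6% lower. At the long regions where SMC3 was lower, 238 of 253 were higher, at a median of 0.710 and 0.754 CPM in KO, against 0.153 and 0.147 CPM in WT. Of these long SMC3 regions 1.318% overlapped an H3K27ac KO consensus peak and 0.2655% a WT one. If the H3K27ac regions were built from peaks, their direction here is tied to that listing. The mark in the KO libraries is uncertain, as given above.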

How the data were processed

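Chromatin of sorted small pre-B cells was precipitated for SMC3 in 2 KO and 2 WT libraries. Per the submitters' processing notes, the authors used BWA, Picard, MACS2, bedtools, featureCounts and edgeR with build mm9, with versions, filters and strand not given in the sources used here. The deposited counts are whole reads per merged SMC3 region, not normalized, and the regions derive from peaks of these same libraries. The authors' input-subtracted counts and normalized signal per region are a second deposited table. The signal is a constant times the subtracted counts and was used for neither test nor level. In each deposited peak list the authors give a score per peak, which was used only to order peaks within a list. Columns of 2 external inputs were not used.

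From the counts, edgeR 4.0.16 (R 4.3.3) gave TMM factors, a filter on low counts (filterByExpr), the quasi-likelihood test of KO against WT and Benjamini-Hochberg adjusted p with a threshold of 0.05. CPM uses the TMM-scaled totals of tested reads, and the SE is the log2 fold change over the root of F. Reads in the merged regions were 4010016 to 17667209 per library. Scaling by library totals used the region reads left after the filter. The script was tested on simulated counts. Overlaps are at least 1 bp (bedtools 2.31.1). Genes are the nearest within 200 kb as the deposited table gives them. Reads over input are the summed reads of a class over its summed scaled input, with the scale recovered from raw minus subtracted counts. Intervals are exact binomial at 95% and cover counting error only.

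Named regions are the first 3 by absolute log2 fold change in each of 9 classes of position, width and CTCF overlap, among called regions above the median level whose groups do not overlap, passing over predicted, Riken, LOC, small RNA, olfactory and vomeronasal receptor symbols. To these come up to 6 listed genes with both kinds of region, then Brwd1, Smc3 and Ctcf. Some regions that this rule gives are not reported here. Genes named from the lists outside this rule were chosen after their values were seen. The members and lists were chosen with earlier results of these data known. Alternatives were other scalings, DESeq2 1.42.0, no filter, input-subtracted counts, equal depth, no dense-input regions, a 1.5-fold threshold, a replicate block and leaving out each library. Same-numbered libraries did not deviate together (correlation −0.056), so that the numbers were not taken as pairs.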

Additional observations from a re-analysis of the deposited data

Results flagged for a closer look

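After ATP depletion of WT cells by oligomycin, an inhibitor of ATP synthase, 38.2% and 39.0% of the listed SMC3 peaks (40667 and 39437 peaks) overlapped a CTCF WT consensus peak. This signal lies outside the comparison of KO and WT and is above the 1.61% and 1.35% of the untreated WT lists. These libraries enter here by their peak lists alone, and the difference was not tested.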

How the results depend on the processing

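The count of regions lower in KO depended most on the processing. Against 13921, it was 7914 under background scaling and 8913 with a 1.5-fold threshold. It was 6479 with input-subtracted counts and 5309 without dense-input regions. The last of these fits recomputed its scaling factors on the regions left. In the main fit 13091 of the 13921 lower regions had no dense input. The count higher in KO, 17046, was 10446 without dense-input regions and stayed within 1.5 times under the other alternatives run. Leaving out 1 library at a time gave 13190 to 21947 higher and 6540 to 19039 lower, with 6540 lower without KO 1 and 7023 without KO 2. With a replicate block 16763 were higher and 12330 lower, and no call of the 44 named regions changed. The share of higher regions at a CTCF peak ran from 54.76% to 81.43% over the fits, and the share of lower regions of 1 kb or longer from 61.58% to 96.63%. The alternatives for these shares, and the read share without dense-input regions, were added after seeing the data. The difference in read share at CTCF peaks ran from 13.92 to 33.73 percentage points over its alternatives, and from 13.39 to 15.62 with 1 library left out. The overlap of WT consensus peaks was 1.62% with a stricter score, 2.13% for unions of replicates and 2.57% with equal list lengths, and 1.014% to 1.785% with 1 library left out. That of KO consensus peaks was 3.18%, 9.89% and 2.24% under the same settings, and 4.163% to 7.273% with 1 library left out. The overlap rose to 7.273% without WT 1. Of the 44 named regions 13 calls were lost with input-subtracted counts, 9 without KO 1, 8 without KO 2 and 3 without dense-input regions. The uncalled Smc3 region at −12.1 kb reversed to a log2 fold change of 0.01 without WT 1 and was called at −1.01 without WT 2. The cause was not tested. The median lower region held 29 and 31 reads in KO, which limits the precision of its fold change, and at equal depth 14633 regions were lower.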
